A study of Mus musculus with 4 samples.

Results

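Genes of the secretory pathway and of protein folding in the endoplasmic reticulum (ER) were examined in bone marrow stromal cells of mice with a transplanted myeloproliferative neoplasm (MPN). The members were all genes whose single symbol in the platform annotation names an ER chaperone, a protein disulfide isomerase (Pdia) or Creld protein, or a subunit of the Sec61 translocon or its partners. Signal peptidase subunits, components of the COPII and COPI vesicle coats, Tmed and KDEL receptors, and the regulators Xbp1, Atf6 and Atf6b complete the set. By this rule 56 of 19938 genes with a value were members, each read from the probe set with the highest mean over the arrays. Recipients were C57BL/6 mice carrying Nes-gfp, a green fluorescent protein reporter under the nestin promoter. Of these, 3 had received Mx1-cre;JAK2-V617F marrow cells and 1 had received control cells, whose genotype the labels do not give. Nes-GFP+ marrow cells lacking the blood, endothelial and erythroid antigens CD45, CD31 and Ter119 were sorted 10 weeks after transplantation and each array represents 1 labelled mouse. The design text places the mutant JAK2 and the interferon-inducible Mx1-cre transgene in the donor cells, while the genotype label lists them together with Nes-gfp. Sex, age, pooling and the induction of Cre were not given in the sources used here.

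Proteins bound for the cell surface or the matrix enter the ER through the Sec61 channel, lose their signal peptide to signal peptidase and fold with the help of chaperones and disulfide isomerases. COPII coats then carry them to the Golgi apparatus, and COPI coats return escaped ER residents, which KDEL receptors recognise by their C-terminal signal. When unfolded proteins build up, the unfolded protein response raises chaperone transcription through ATF6 and XBP1. Stromal and bone-forming cells rely on this route to export collagen, and granulocyte precursors and plasma cells use it for granule proteins and antibodies.

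The cells on the MPN arrays differed from those on the control array in their marker genes. All 8 mesenchymal stromal markers lay at least 2-fold lower on each MPN array, with a mean log2 value over the list of 5.47 to 6.32 against 9.98 in the control, and so did all 5 osteoblast markers (6.06 to 6.74 against 9.29). The 8 leukocyte markers lay at least 2-fold higher on each MPN array (9.65 to 10.39 against 7.20), as did 8 of 10 neutrophil markers (10.21 to 11.21 against 7.76) and 5 of 6 granulocyte precursor markers (8.88 to 9.94 against 7.16). Ptprc, which encodes the CD45 that the sort selected against, was at 10.16, 9.46 and 10.40 in the MPN mice against 7.07. Plasma cell markers averaged 4.62 to 4.78 against 4.47, and Jchain, Prdm1 and Irf4 among them lay below 5.21 on all arrays. This background limit is the 95th percentile of olfactory and vomeronasal receptor genes, whose expression belongs to the nose. Endothelial markers averaged 4.69 to 4.90 against 4.41 and erythroid markers 4.86 to 5.41 against 4.84. By the MPN mean or the control value, only 3 of 6 endothelial and 1 of 3 erythroid markers were above the limit. B cell precursor markers averaged 5.03 to 6.73 against 5.95 and differed between mice, with Vpreb1 at 4.36, 11.26 and 4.80 against 9.64, low in mice 1 and 3 and high in mouse 2. Nes, whose promoter drives the reporter, was at 4.56, 3.92 and 4.26 against 4.26, under the limit on every array. Xist was at 8.37, 9.31 and 9.22 against 3.30 and the Y-linked Kdm5d at 4.16, 4.16 and 4.14 against 7.72, so sex-linked genes also separated the groups. The part of these differences in the results below was not tested. In such bulk samples fewer cells of a type and less RNA per cell cannot be told apart.

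Secretory pathway genes lay lower on the MPN arrays as a group, by the median most of all the vesicle coats. Their median log2 difference, MPN minus control, was -0.48, while the median of all genes was 0.18 and that of the 11966 genes above the background limit was 0.08. Of the 56 members, 30 lay lower on each MPN array than on the control array, against 21.1% of all genes and 29.9% of genes above the limit. Higher on each MPN array were 4 members, against 46.8% of all genes and 36.9% of genes above the limit. The receptor genes that set the limit had a median difference of 0.25, so values near background lay slightly higher on the MPN arrays. The part of this shift in the shares and median of all genes was not tested. At least 2-fold lower on each MPN array were 9 members, a share of 16.1% against 5.78% of all genes and 9.36% of genes above the limit. At least 2-fold higher were 0 members, against 1.13% of all genes. By the MPN mean or the control value, 51 of 56 members were above the limit. The shares of genes above the limit use the same rule, which a gene can pass through the control alone. Sec61a2, Sec24d and Sec23a passed in that way, with MPN means of 4.62, 5.03 and 4.61, and are among the 9. Among the 6000 genes with a mean of at least 5.96, the lower quartile of the members, 5 of 42 members (11.9%) were 2-fold lower against 8.6% of genes, a share near the background. The 3 COPII coat genes among the 9, Sec23ip, Sec24d and Sec23a, fell outside this range, with means over all arrays of 5.91, 5.51 and 4.97. In the same range 22 of 42 members lay lower on each array, against 28.7% of genes, and 2 lay higher on each, against 31.3%. The 2-fold higher share there was 0 of 42 against 3.52%, and over genes above the limit 1.85%.

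No member passed limma's test after Benjamini-Hochberg adjustment over all genes, and neither did any other gene (0% of 19938). Unadjusted p was under 0.05 for 13 members, all lower, against 8.63% of all genes lower and 3.97% higher. The shares of genes above the limit were 13.3% and 4.59%. In the range of at least 5.96 it was under 0.05 for 7 of 42 members, all lower, against 10.3% of genes lower and 5.27% higher. The smallest adjusted p of a member was 0.0871, for Sec61a2. With 1 control array the spread rests on the MPN mice alone, so the differences below describe these 4 arrays.

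**Figure D1:**
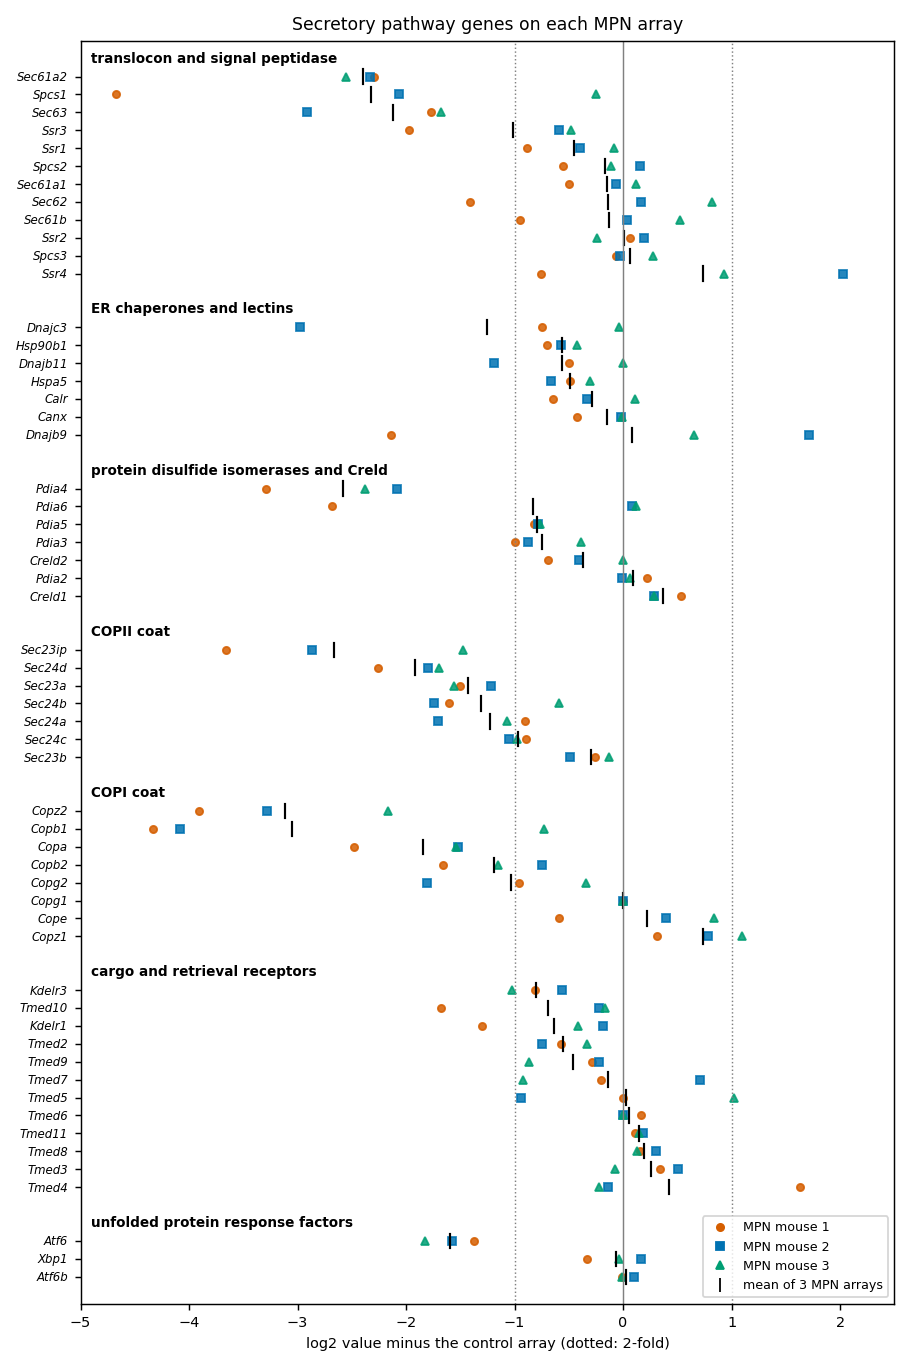
Log2 value on each of the 3 MPN arrays minus the control array (x axis) for the 56 members, grouped by role (y axis). Points are arrays, black ticks the mean of the 3 MPN arrays, dotted lines a 2-fold difference. All 7 COPII genes lie left of 0 on every MPN array.

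COPII coat genes, whose products form the vesicles that leave the ER, were lower throughout. All 7 lay lower on each MPN array, with a median difference of -1.31, and 3 of them were at least 2-fold lower on each. Sec23ip, which encodes a partner of Sec23, was at 4.25, 5.04 and 6.44 in MPN mice 1, 2 and 3 against 7.91 in the control mouse (-2.67, SE 0.99, adjusted p = 0.418). The mice spread widely for this gene, and the control lay above all of them. Mice 1 and 2 were under the background limit for it, so its size is uncertain too. Sec24d encodes a cargo-binding subunit needed for collagen export. It was at 4.69, 5.15 and 5.25 against 6.95, a difference of -1.92 (SE 0.30, adjusted p = 0.172). Sec23a, the coat subunit whose loss causes a human skeletal disorder, was at 4.54, 4.82 and 4.48 against 6.04 (-1.43, SE 0.22, adjusted p = 0.166). For both genes the MPN values lay close together and well below the control, but their MPN means, 5.03 and 4.61, were under the background limit, so the size of the difference is uncertain. Sec24b, Sec24a and Sec24c, further cargo-binding subunits, differed by -1.31, -1.23 and -0.97. Sec24a and Sec24c were just outside 2-fold, with the nearest MPN array lower by -0.90 and -0.89. Sec23b, the other Sec23 form, differed least, at 5.57, 5.34 and 5.70 against 5.83.

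COPI coat genes divided. Of the 8 genes, 5 lay lower on each MPN array, 2 of them at least 2-fold, and the median difference was -1.11. Copz2, the less common form of the zeta subunit, had the largest difference of all members and was at 5.56, 6.19 and 7.31 against 9.47 (-3.12, SE 0.80, adjusted p = 0.303). Copa, the alpha subunit, was at 6.84, 7.80 and 7.78 against 9.32 (-1.85, SE 0.51, adjusted p = 0.329). In both genes every MPN mouse was below the control by more than the MPN mice differed among themselves. Copb1, the beta subunit, behaved otherwise: mice 1 and 2 were at 4.72 and 4.97, whereas mouse 3, at 8.33, was close to the control at 9.06. Its difference of -3.05 had an SE of 1.79, and its size is uncertain, since mice 1 and 2 were under the background limit. Copb2, the second beta subunit, was at 7.89, 8.81 and 8.40 against 9.55. Copg2, a gamma subunit, was at 5.80, 4.95 and 6.42 against 6.76. Both lay below the control on each array but came within 2-fold of it on at least 1. Copz1, the common zeta subunit, went the other way, with 6.89, 7.36 and 7.67 against 6.57, higher on each MPN array. Cope overlapped the control (6.66, 7.64 and 8.08 against 7.24), and Copg1 was at 6.09 on all arrays. The Copg1 values of mice 1 and 3 and the control were exactly equal, which the processing can produce, so they may not show a lack of difference.

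**Figure D2:**
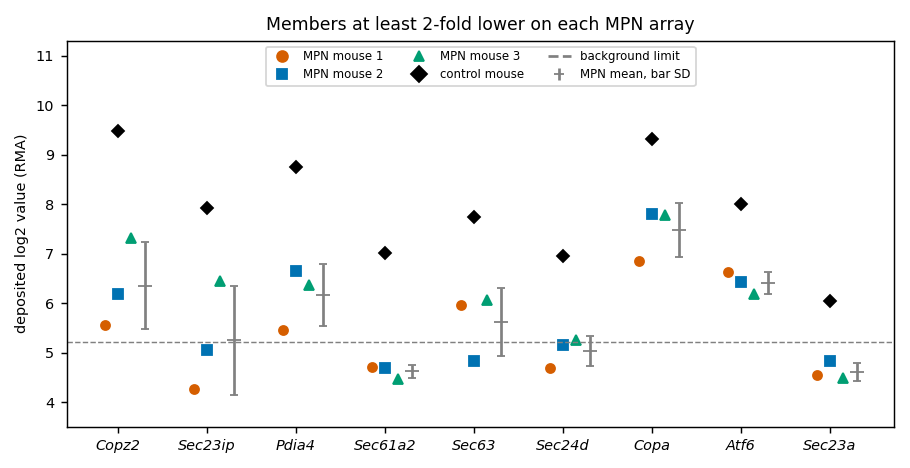
Deposited log2 value (y axis) of the 9 members at least 2-fold lower on each MPN array (x axis), for the 3 MPN mice and the control mouse. Grey bars are the MPN mean with its SD (n = 3) and the dashed line is the background limit of 5.21. The control lies above every MPN value, and the MPN means of Sec61a2, Sec24d and Sec23a are under the limit.

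At the ER membrane, the channel and its partners were mostly close to the control by the MPN mean, with a median difference of -0.16 over 12 genes. By mouse this median was -0.92 in mouse 1, -0.05 in mouse 2 and -0.10 in mouse 3, so mouse 1 departed from the others. Sec61a2, the second form of the channel's alpha subunit, was at 4.71, 4.68 and 4.46 against 7.01 (-2.40, SE 0.19, adjusted p = 0.0871). It was below the background limit on each MPN array and clearly above it in the control. Sec63, which links the channel to the chaperone BiP, was at 5.97, 4.82 and 6.06 against 7.74 (-2.12, SE 0.63, adjusted p = 0.356). Mouse 2 was under the limit for Sec63. Sec61a2 and Sec63 were the 2 translocon genes at least 2-fold lower on each array. The main alpha subunit Sec61a1 was at 6.56, 6.98 and 7.18 against 7.05, and the beta subunit Sec61b at 7.81, 8.80 and 9.29 against 8.76. Their MPN values lay on both sides of the control. Spcs1, a small signal peptidase subunit, had the widest spread of all members, from 6.03 in mouse 1 through 8.64 to 10.45 in mouse 3, against 10.70 in the control. The other signal peptidase genes, Spcs2 and Spcs3, differed by -0.17 and 0.06. Of the translocon-associated proteins, which assist entry into the channel, Ssr3 (-1.02) and Ssr1 (-0.45) lay lower on each MPN array. Ssr2 (0.01) and the X-linked Ssr4 (0.73) overlapped the control.

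The abundant ER chaperones were at or slightly under the control. In this group 4 of 7 genes lay lower on each MPN array, 0 were 2-fold lower on each, and the median difference was -0.49. Hspa5 encodes BiP, the ER's Hsp70 chaperone and the usual readout of the unfolded protein response. It was at 10.46, 10.28 and 10.64 against 10.95, a difference of -0.49 (SE 0.21, adjusted p = 0.443). Hsp90b1, the ER's Hsp90 (GRP94), was at 11.44, 11.57 and 11.71 against 12.14 (-0.57, SE 0.19, adjusted p = 0.392). Both were below the control on every MPN array by less than 2-fold. Canx, the membrane lectin chaperone calnexin, was at 10.80, 11.21 and 11.22 against 11.23. Calr, its soluble counterpart calreticulin, was at 9.36, 9.67 and 10.11 against 10.0, and mouse 3 exceeded the control. Calr is also a gene mutated in human MPN. The DnaJ co-chaperones of BiP varied between mice. Dnajc3 was at 9.07, 6.84 and 9.78 against 9.82, Dnajb9 at 5.24, 9.09 and 8.03 against 7.37, and Dnajb11 at 8.10, 7.42 and 8.60 against 8.60. In Dnajc3 and Dnajb11 mouse 2 was lowest and in Dnajb9 it was highest, so their means say little about the group.

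Among the disulfide isomerases, which form and reshuffle disulfide bonds, Pdia4 stood apart. It was at 5.45, 6.66 and 6.36 against 8.74, a difference of -2.59 (SE 0.57, adjusted p = 0.259). A second Pdia4 probe set lay under the background limit on all arrays and showed no such gap, at 3.77, 4.09 and 3.53 against 3.62. When the probe sets of a gene were averaged, Pdia4 no longer was 2-fold lower on each array. Pdia5 differed by -0.79 (SE 0.15, adjusted p = 0.202) with nearly equal MPN values of 5.71, 5.75 and 5.76 against 6.53. Pdia3 (ERp57), the partner of calnexin and calreticulin, was at 9.54, 9.66 and 10.15 against 10.54. Pdia6 was low only in mouse 1, at 6.10, 8.86 and 8.89 against 8.78. Pdia2, a pancreatic form, was under the background limit throughout. The Creld genes were at 6.49, 6.77 and 7.18 against 7.18 for Creld2, a gene induced by ER stress, and at 5.88, 5.63 and 5.63 against 5.34 for Creld1.

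Cargo and retrieval receptors had a median difference of -0.06 over 12 genes. Of these, 5 lay lower on each MPN array and 2 higher, and 0 were 2-fold apart on each array. Their difference from the coats was not tested. Kdelr3, a KDEL receptor, had the largest difference, at 4.25, 4.50 and 4.04 against 5.06, all of them below the limit. Kdelr1 was at 5.14, 6.25 and 6.02 against 6.44. Tmed10 and Tmed2, of the p24 family that packs cargo into vesicles, were at 7.52, 8.97 and 9.03 against 9.20 and at 8.28, 8.10 and 8.53 against 8.86. All of these lay below the control on each MPN array. A second Tmed10 probe set overlapped the control, at 6.93, 7.24 and 8.56 against 7.24. A second Tmed2 probe set was at least 2-fold lower on each array, at 6.51, 6.53 and 6.20 against 7.77, and the third lay below the control on each array. Tmed9 was the remaining gene lower on each array (-0.46). Tmed3, Tmed4, Tmed5, Tmed6 and Tmed7 lay on both sides of the control or equalled it on at least 1 array, Tmed8 and Tmed11 were higher on each array by 0.20 and 0.15, and Tmed5, Tmed6 and Tmed11 had group means under the limit.

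Of the regulators, Atf6, the ER membrane sensor that is cleaved to a transcription factor under stress, was lower. It was at 6.63, 6.42 and 6.18 against 8.0 (-1.59, SE 0.25, adjusted p = 0.171), at least 2-fold below the control on each array. Xbp1, whose RNA is spliced by the sensor IRE1, was at 6.67, 7.16 and 6.96 against 7.0, on both sides of the control. These probe sets were not used to tell spliced from unspliced Xbp1 RNA. Atf6b, the relative of Atf6, was at 5.61, 5.73 and 5.61 against 5.63.

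Related genes with the same role often differed in how far they lay from the control. Copz2 was below the control by 4.23, 4.07 and 3.26 more than Copz1 in MPN mice 1, 2 and 3. Sec61a2 lay below Sec61a1 by 1.80, 2.26 and 2.68 on the same scale of differences from the control. The gap between Atf6 and Atf6b was -1.36, -1.68 and -1.82, and that between Sec23a and Sec23b -1.25, -0.74 and -1.43. In 7 of 9 such pairs, chosen after their values were seen, the same member was the lower on all 3 MPN arrays. The exceptions were Sec24a with Sec24b, where the gap was 0.70, 0.04 and -0.48, and Kdelr3 with Kdelr1, where it was 0.49, -0.38 and -0.60. Copg1, Atf6b, Creld1 and Creld2, which are in these pairs, held exactly equal values on at least 2 arrays. The gaps of the pairs were not tested, since each rests on 1 control array.

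**Figure D3:**
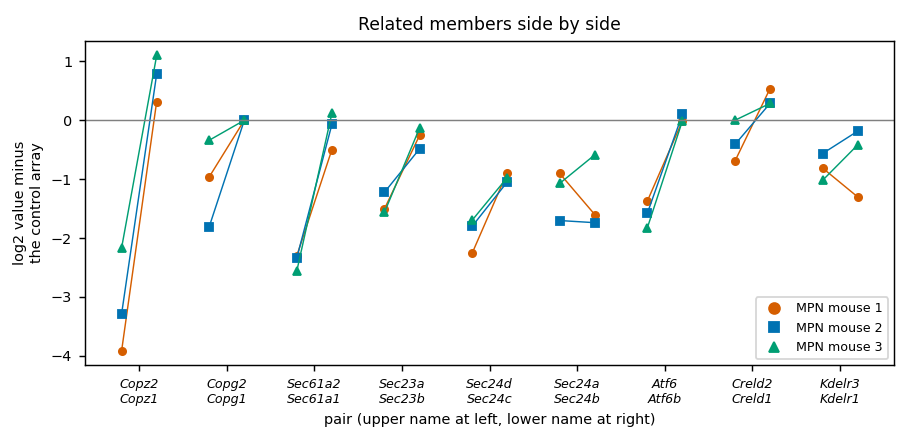
Log2 value on each MPN array minus the control array (y axis) for 9 pairs of related members (x axis), the points of an array joined by a line. The left gene is the lower on all 3 arrays in every pair but Sec24a with Sec24b and Kdelr3 with Kdelr1.

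The MPN mice were not alike for these genes. Mouse 1 had the lowest MPN value for 30 of 56 members, mouse 2 for 13 and mouse 3 for 10, with ties for the rest. Over all genes mice 1, 2 and 3 were lowest for 20.7%, 21.2% and 52.7%. In the range of at least 5.96 they were lowest for 26, 9 and 7 of 42 members. The shares of the 6000 genes in that range were 31.2%, 33.0% and 33.5%. The median difference of the members from the control was -0.75 in mouse 1, -0.40 in mouse 2 and -0.20 in mouse 3. The corresponding medians over all genes were 0.20, 0.21 and 0.08. Pdia6, Spcs1, Sec62, Tmed10 and Kdelr1, among others, were lower by more than 2-fold in mouse 1 and nearer the control in the other mice or, for Spcs1, in mouse 3. The count of members 2-fold lower on each remaining array was 10 without mouse 1, 10 without mouse 2 and 12 without mouse 3, and all 9 genes were retained each time. Without mouse 1 the median difference was -0.27.

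Promoter sequences were searched for the response elements of the unfolded protein response, which the selection of members did not use. RefSeq promoters (GRCm38.p6, 250 bases before to 50 after the gene start) were at hand for 49 of 56 members. Both strands were searched for the ER stress response element ERSE (CCAAT, any 9 bases, CCACG), for ERSE-II (ATTGG, any 1 base, CCACG) and for the unfolded protein response element UPRE (TGACGTGG). ERSE was present in 7 of 49 members (14.3%) and in 37 of 27025 genes with a promoter (0.137%). This element was originally described in ER chaperone promoters, so its presence here is a known property of the family. The matches are shown because they lie in chaperone, isomerase and Creld genes and in 0 of the coat genes searched. Capitals mark the element, which reads CGTGG, 9 bases, ATTGG where it lies on the opposite strand, and each line gives the strand of the gene.
Hspa5, chr2:34772015-34772053, plus strand: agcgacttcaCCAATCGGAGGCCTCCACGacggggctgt
Hsp90b1, chr10:86705628-86705666, minus strand: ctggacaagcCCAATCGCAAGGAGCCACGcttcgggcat
Hsp90b1, chr10:86705523-86705561, minus strand: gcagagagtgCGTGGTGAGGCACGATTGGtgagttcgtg
Calr, chr8:84847065-84847103, minus strand: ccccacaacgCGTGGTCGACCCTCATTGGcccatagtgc
Canx, chr11:50325790-50325828, minus strand: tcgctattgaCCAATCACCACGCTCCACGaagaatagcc
Pdia6, chr12:17266481-17266519, plus strand: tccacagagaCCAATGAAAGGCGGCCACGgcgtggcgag
Dnajc3, chr14:118937817-118937855, plus strand: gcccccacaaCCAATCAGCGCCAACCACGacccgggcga
Creld2, chr15:88819510-88819548, plus strand: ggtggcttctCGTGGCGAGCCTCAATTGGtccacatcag

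UPRE was present in 5 of 49 members (10.2%) and in 193 genes overall (0.714%), and none of the 5 held an ERSE. They were the coat genes Sec24d, Sec23a, Copb1 and Copb2 and the receptor gene Kdelr3. The 3 matches that lie before the gene start are shown in capitals, reading CCACGTCA where the element is on the opposite strand.
Sec24d, chr3:123267460-123267487, plus strand: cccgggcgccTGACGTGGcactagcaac
Copb1, chr7:114254691-114254718, minus strand: ccgcccccttCCACGTCAgccaaggact
Kdelr3, chr15:79516368-79516395, plus strand: ggccgccccgCCACGTCAccgcgcggcc

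ERSE-II was found in 1 member, Dnajb11, and in 0.0444% of genes. The 7 members with an ERSE had differences from -1.25 to -0.15 (median -0.49), and 4 of them lay lower on each MPN array, 0 by 2-fold. The 5 members with a UPRE had differences from -3.05 to -0.80 (median -1.43), all 5 lay lower on each MPN array and 2, Sec24d and Sec23a, by at least 2-fold on each. Kdelr3 was under the background limit on every array, and the MPN means of Sec24d and Sec23a were under it. Sec24d, Sec23a, Copb1 and Copb2 are coat genes already given above as lower, so this set is not separate from that result. The difference between the small ERSE and UPRE sets was not tested. Outside the members, 138 measured genes with a UPRE had a median difference of 0.09, and 29.7% of them lay lower on each MPN array, between the 21.1% of all genes and the 29.9% of genes above the limit, which 105 of them were. The 14 other measured genes with an ERSE had a median of 0.11 and 0 lay lower on each array. The 8 with an ERSE-II had a median of -0.33, and 4 lay lower on each array. A match of letters is no evidence of binding, and the 7 members without a promoter sequence, among them Atf6 and Sec61a1, were not searched.

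**Figure D4:**
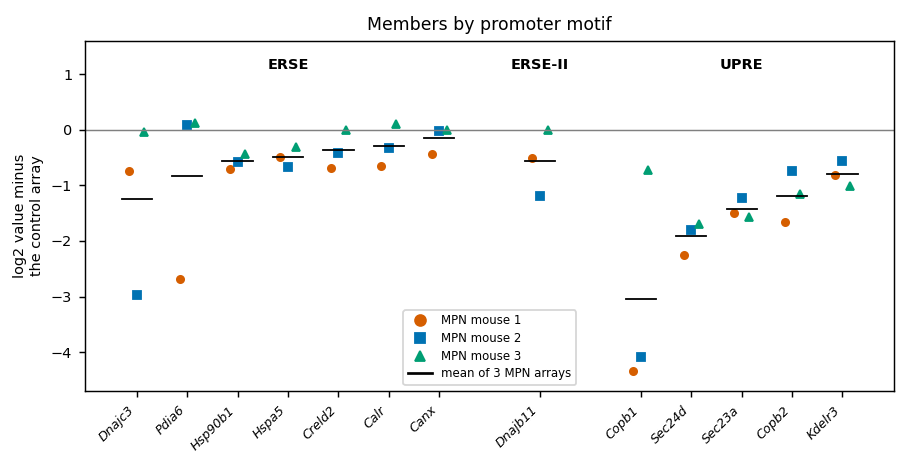
Log2 value on each MPN array minus the control array (y axis) for members grouped by the response element found in their promoter (x axis), with the mean of the 3 MPN arrays as a black line. Members with a UPRE lie below 0 on every array, while Calr and Pdia6 among those with an ERSE reach above it.

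Other genes of the pathway, listed by function and not by how they moved, lay lower on each array more often than all genes, but not by 2-fold more often than genes above the limit. Of 80 measured genes in 4 lists, 42 lay lower and 13 higher on each MPN array, 8 were at least 2-fold lower and 1 at least 2-fold higher, and 0 passed the adjusted test. The share lower on each array was 52.5%, against 21.1% of all genes and 29.9% of genes above the limit, which 78 of the 80 were. The share 2-fold lower was 10.0%, near the 9.36% of genes above the limit. Unadjusted p was under 0.05 for 10 that were lower and 3 that were higher, where 13.3% and 4.59% of genes above the limit were. Their median difference was -0.56. The 24 further genes of ER to Golgi transport had a median of -1.0, and 5 were 2-fold lower on each array. Uso1, the tether p115, was at 6.31, 5.81 and 7.40 against 8.81, and Sec31a, the outer COPII coat, at 6.33, 6.27 and 7.76 against 8.83. Both lay below the control on each array. Sar1a, the GTPase that starts COPII assembly, was low in mice 1 and 2 (5.15 and 5.68) and at 8.40 in mouse 3 against 8.66. The list of 18 further folding factors had a median of -0.51. Fkbp14, a collagen-folding prolyl isomerase, was at 4.35, 4.51 and 4.51 against 7.48 (-3.02, SE 0.17, adjusted p = 0.0871), and Dnajc10, a disulfide reductase, at 4.11, 6.37 and 7.39 against 8.16. All MPN values of Fkbp14 were under the background limit, so its size is uncertain. Ero1a, the oxidase that recharges disulfide isomerases, was at 9.22, 9.76 and 11.04 against 7.76, at least 2-fold higher on each array. Fkbp2 and Fkbp11, prolyl isomerases of the ER, were also higher on each array, by 0.42 and 0.30, and 11 of the 18 differences were below 0.

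The 18 signal recognition and glycosylation genes had a median of -0.75, and 0 were 2-fold apart on each array. The oligosaccharyltransferase genes Stt3a (7.96, 7.14 and 10.41 against 10.39) and Dad1 (5.45, 6.02 and 7.52 against 8.12) were lower in mice 1 and 2 than in mouse 3. The receptor gene Srpr was at 4.82, 6.21 and 5.89 against 7.15, below the control on each array. Srp9 and Srp14, the particle's subunits that pause translation, were higher on each array. Srp9 was at 10.30, 10.39 and 10.10 against 9.20 and Srp14 at 9.82, 10.69 and 9.98 against 8.82. Unadjusted p was under 0.05 for both and for 3 genes of the list that were lower. Sec11c, a catalytic subunit of signal peptidase, was higher on each array by 0.79. Its relative Sec11a went the other way, at 7.89, 7.81 and 7.55 against 8.68, lower on each array. The 20 genes of the unfolded protein response and ER-associated degradation had a median of -0.25 and were spread around the control. Among these, Derl2, a degradation factor, was at 7.21, 3.94 and 6.92 against 8.09. Creb3l1, an ATF6-related factor of bone-forming cells, was at 5.13, 5.20 and 4.39 against 6.58 (-1.67, SE 0.42, adjusted p = 0.3), 2-fold lower on each array. Mbtps1, the protease that activates ATF6, was at 4.37, 4.74 and 5.08 against 5.82. Creb3l1 and Mbtps1 were under the background limit on every MPN array. The 11 secreted matrix genes, cargo of this route in stroma, had a median of -1.76. At least 2-fold lower on each array were 6 (54.5%), against 5.78% of all genes and 9.36% of genes above the limit. Col3a1, Col5a1 and Fn1 lay on both sides of the control, and Col6a2 differed by -0.33. The type I collagen gene Col1a1 was at 7.43, 7.58 and 7.67 against 10.34.

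**Figure D5:**
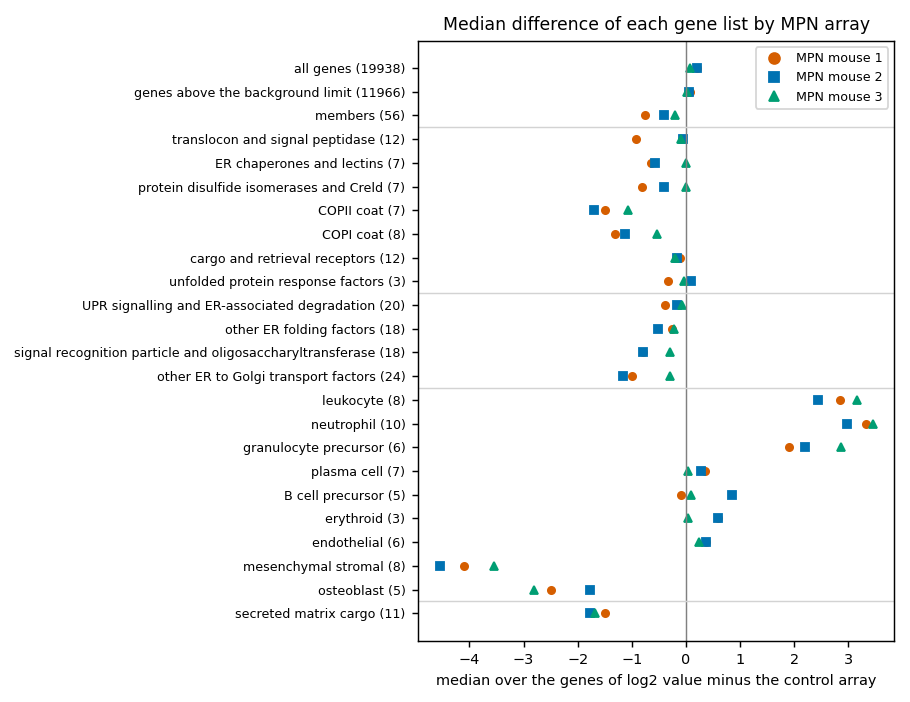
Median over the genes of a list of the log2 value minus the control array (x axis), by MPN array, for all genes, the members, each member role, the other pathway lists, the cell type markers and the matrix cargo (y axis, number of genes in brackets). COPII genes lie between the mesenchymal stromal markers and the median of all genes on every array.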

How the data were processed

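RNA of sorted cells was amplified with the NuGEN Ovation system and hybridised to Affymetrix mouse gene arrays, 3 MPN and 1 control. The deposited log2 values were made by the authors with RMA, per the submitters' processing notes; its version and the probe set definitions were not given in the sources used here. RMA compresses differences near background, and its median polish can give arrays identical values: 7 of 56 members (12.5%) and 12.7% of all genes held exactly equal values on at least 2 arrays. The table holds 35556 probe sets, of which 21789 have 1 symbol and 1621 several. Several symbols shared the probe sets of Sec61g, which was therefore not used. All 56 members matched a RefSeq gene by identifier.

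The comparison used lmFit and eBayes of limma 3.58.1 (R 4.3.3, two-sided), with p-values adjusted by Benjamini-Hochberg over 19938 genes with a threshold of 0.05. Only the MPN arrays supply the 2 residual degrees of freedom, so the control is assumed to vary like them. SE is that of the fitted difference and SD the spread of the 3 MPN arrays. A 2-fold difference on each MPN array describes size. The background limit came from 1194 olfactory and vomeronasal receptor genes. A gene counted as above it when its MPN mean or its control value exceeded it. On simulated data the fit returned, in the median, about the differences that had been built in, which checks only their sign and scale. The simulated control was drawn with the MPN spread, so that assumption was not tested. The number of arrays limits the precision, as they have no read depth.

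Members, lists and tests were chosen with earlier results of these data known. Named were members 2-fold apart on each array, up to 3 per role and per other pathway list with the largest difference, and 12 canonical members with Ptprc and Col1a1. Other members and genes given with values were chosen after their values were seen, as were the mean expression range, the related pairs, and the sex-linked genes and Nes. Alternatives left out each MPN mouse, averaged probe sets, removed genes under the limit, or changed the normalisation or the variance prior.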

Additional observations from a re-analysis of the deposited data

How the results depend on the processing

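Counts of members at least 2-fold lower on each MPN array ran from 8 to 12 over all alternatives. The 9 genes were retained in each, except that Pdia4 was lost when probe sets were averaged. The count 2-fold higher was 0 throughout, and the median difference of the members ran from -0.73 to -0.27, below that of all genes each time. The count past the adjusted threshold was 0 as deposited, 1 after cyclic loess and 1 when receptor gene medians were made equal between arrays, an alternative that was chosen after seeing the data. The gene was Sec61a2 both times (-2.58, adjusted p = 0.0480, and -2.65, adjusted p = 0.0460), and over the other settings the smallest adjusted p of a member ran from 0.0618 to 0.454. Those scalings moved the median of all genes from 0.18 to 0.01 and -0.08, and all genes past the threshold from 0 to 97 and 153. The cause was not tested. Leaving out any mouse gave 0 members past the threshold and 10 to 12 members 2-fold lower.

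Of 27 named members, 22 kept their direction under all 9 settings that alter values. Leaving out each mouse gave a range that crossed 0 for Pdia6 (-1.30 to 0.10), Sec61a1 (-0.28 to 0.026), Sec61b (-0.45 to 0.28) and Xbp1 (-0.19 to 0.060), each above 0 without mouse 1, and for Atf6b (-0.012 to 0.044), below 0 without mouse 2. After repeated quantile normalisation Sec61a1 was at 0.14 and Xbp1 at 0.22. Atf6b was at -0.12 after cyclic loess and -0.23 after the receptor gene shift. No paired analysis was possible because there is 1 control array for 3 MPN arrays. The single control array is the main limit, since no alternative can leave it out.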

Other observations

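Of the 138 measured genes outside the members whose promoter holds TGACGTGG, 11 lay at least 2-fold lower and 2 at least 2-fold higher on each MPN array. These shares, 7.97% and 1.45%, lay between those of all genes (5.78% and 1.13%) and of genes above the limit (9.36% and 1.85%), so nothing here is particular to these genes. Picked after their values were seen, Timp1, an inhibitor of metalloproteinases, was at 5.31, 4.56 and 5.74 against 8.41 in the control, and Stx5a, a syntaxin of ER to Golgi transport, at 6.31, 6.55 and 7.86 against 8.56. Timp1 lay at least 2-fold below the control on each array, and Stx5a came within 2-fold of it in mouse 3. The 2 genes at least 2-fold higher were Uchl5, at 10.44, 9.59 and 9.76 against 8.49, and Pld4, at 7.49, 6.49 and 5.97 against 4.85. Ptpn7, a phosphatase of blood cells, was at 6.34, 6.64 and 6.85 against 5.49. It was above the control on each array but within 2-fold of it in mouse 1. Leukocyte markers were higher on the same arrays, and their part in these values was not tested.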
